A study of Homo sapiens with 48 samples.

Results

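The nuclear exosome targeting factors were examined in RNA-seq libraries of HEK293T cells in which the cap-binding protein NCBP1 had been modified by an electrophile. They are 9 genes, ZC3H18, ZCCHC8, RBM7, MTREX, ZFC3H1, PABPN1, EXOSC10, EXOSC3 and DIS3, chosen by name for their roles, out of 14685 genes in the count tables. All 9 had a row and all 9 passed the filter on low counts, which removed 0 genes. The tables list them by Ensembl identifier, as ENSG00000158545 (ZC3H18), ENSG00000033030 (ZCCHC8), ENSG00000076053 (RBM7), ENSG00000039123 (MTREX), ENSG00000133858 (ZFC3H1), ENSG00000171824 (EXOSC10), ENSG00000107371 (EXOSC3), ENSG00000083520 (DIS3) and ENSG00000100836 (PABPN1).

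The RNA exosome is a ring of subunits that degrades RNA from its 3′ end. In the nucleus it is fed by adaptors built around the helicase MTREX. MTREX joins the zinc-knuckle protein ZCCHC8 and the RNA-binding protein RBM7 in the NEXT complex, which directs promoter upstream transcripts, enhancer RNAs and other short unadenylated RNAs to decay. With the zinc-finger protein ZFC3H1 and the nuclear poly(A)-binding protein PABPN1 it forms the PAXT connection, which acts on polyadenylated nuclear RNAs. ZC3H18 links both adaptors to the cap-binding complex, of which NCBP1 is the large subunit, through the protein ARS2 (SRRT). In the exosome itself EXOSC3 is a cap subunit that binds RNA, DIS3 is the processive ribonuclease and EXOSC10 is the distributive ribonuclease of the nucleus.

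HEK293T is a human embryonic kidney line that carries the SV40 large T antigen. In all groups the cells were wild-type HEK293T transfected with a plasmid that encodes NCBP1 fused to Halo, a tag that binds chloroalkane probes. In the T-REX arm the Halo-bound probe Ht-PreHNE was uncaged by light, which releases the lipid-derived electrophile HNE next to NCBP1. The controls were light alone, probe alone and the DMSO vehicle, and each arm was collected at 3, 6 and 12 h with 4 libraries, 48 in all. The study's methods list the light alone arm with probe as well, so its name is kept here as given. The table cannot separate plasmid from endogenous NCBP1 reads, and NCBP1 had 30797 to 92201 CPM (counts scaled to a common library size) over the libraries. The median CPM of NCBP1 in the T-REX libraries was 77830 at 3 h, against 59256 for light alone, 64930 for probe alone and 53713 for DMSO. The reaction is on the protein, so this level does not check the T-REX label.

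Library totals ran from 23952455 to 37099535 counts, and scaling factors from 0.954 to 1.05. Of 6 marker genes listed for HEK293T 5 were in the table, and PAX2 was not. VIM had 437 to 668 CPM, INA 46.7 to 92.1 and NEFM 22.2 to 46.4. KRT18 was low at 7.14 to 13.4 CPM, as was KRT8 at 4.39 to 10.4. Of 7 genes listed for other cell types 1 was in the table, COL1A1 at 2.13 to 6.07 CPM, and its part in the results was not tested. Levels below are CPM after TMM scaling, fold changes are log2 values from edgeR's quasi-likelihood fit, and a gene is called at a Benjamini-Hochberg adjusted p of at most 0.05 over all 14685 genes. Since bulk RNA was sequenced, fewer cells with a transcript and less of it per cell cannot be told apart. CPM is a share of a library's counts and gives no total amount of RNA.

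The 9 genes were all expressed, and their levels spanned a wide range. Per kilobase of all annotated exons merged, DIS3 had the highest median level over the 48 libraries, at 41.6 CPM per kb. MTREX (27.0), ZFC3H1 (23.9) and EXOSC10 (23.1) followed in CPM per kb. EXOSC3 stood at 9.5, ZCCHC8 at 5.98, ZC3H18 at 4.71, RBM7 at 3.26 and PABPN1 at 2.07 CPM per kb. The merged length exceeds that of the transcript with the longest coding sequence to an uneven degree. It was 10835 against 10604 bases for DIS3, 6003 against 2808 for EXOSC10 and 9124 against 2955 for ZCCHC8. The order of the genes therefore depends on the length used. The ranges of MTREX, ZFC3H1 and EXOSC10 over the libraries overlapped on this scale, as did those of ZCCHC8 and ZC3H18 and those of ZC3H18 and RBM7. Transcripts of the 3 NEXT subunits were unequal in level, with MTREX, which PAXT shares, above ZCCHC8 and RBM7. PABPN1 had 188 to 332 counts per library, the fewest of the 9. It overlaps the read-through gene BCL2L2-PABPN1, which had no row of its own among the counts, so the counts of PABPN1 are uncertain.

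Between libraries of one group the factors varied to different degrees. The SD within groups of the log2 CPM was 0.056 for MTREX, 0.069 for EXOSC10, 0.071 for DIS3 and for ZFC3H1, and 0.073 for ZCCHC8. EXOSC3 (0.11), RBM7 (0.13), PABPN1 (0.14) and ZC3H18 (0.17) had larger SDs in log2 CPM. The median SD was 0.15 over all genes and 0.13 over genes with a mean of at least 100 counts, so ZC3H18, PABPN1 and RBM7 lay above the latter and ZC3H18 above both. Over all 48 libraries the highest level of EXOSC10 was 1.28 times its lowest, the smallest such ratio of the 9, and for ZC3H18 it was 2.08 times.

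Whether electrophile modification of NCBP1 alters these transcripts was examined by comparing T-REX with each control at each time. None of the 9 factors was called in any of these 9 comparisons by edgeR, and DESeq2 called 1 factor in 1 of them (ZFC3H1 against DMSO at 3 h). At 3 h 0 of 9 were called against light alone, where 0.197% of all genes were called, against probe alone (1.05% of all genes) and against DMSO (5.99%). At 6 h the count was again 0 of 9 against light alone (0.218% of all genes), probe alone (0.109%) and DMSO (0.415%). At 12 h it was 0 of 9 against light alone (1.29% of all genes), probe alone (0.701%) and DMSO (10.9%). Against the mean of the 3 controls 0 of 9 were called at 3 h (6.17% of all genes), 6 h (0.388%) and 12 h (3.78%). Under the rule of a call in 1 direction against at least 2 of 3 controls, 0 of 9 passed at 3 h (0.947% of all genes), 6 h (0.136%) and 12 h (1.4%). With at most 10.9% of all genes called in any of these comparisons, a count of 0 of 9 is near the background. At an unadjusted p of at most 0.05 there were at 3 h 0 of 9 against light alone (14.8% of all genes), 1 of 9 against probe alone (18%) and 4 of 9 against DMSO (21.9%). At 6 h these were 0 of 9 (11.7% of all genes), 1 of 9 (6.56%) and 1 of 9 (12.4%), and at 12 h 0 of 9 against each control (12.9%, 11.1% and 26.9% of all genes).

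The differences were bounded by the replicate error. Over the 81 values (9 factors against 1 control at 1 time) the fitted log2 fold change ran from -0.23 to 0.18, that is from 0.850-fold to 1.14-fold. The 95% intervals reached from -0.43 to 0.49, or 0.744-fold to 1.40-fold, and the widest belonged to ZC3H18 and PABPN1. Of the 81 values 7 had an unadjusted p of at most 0.05. A p that misses the adjusted threshold does not show that a factor did not differ. The comparisons at one time share the same T-REX libraries, so their values are not independent.

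**Figure D1:**
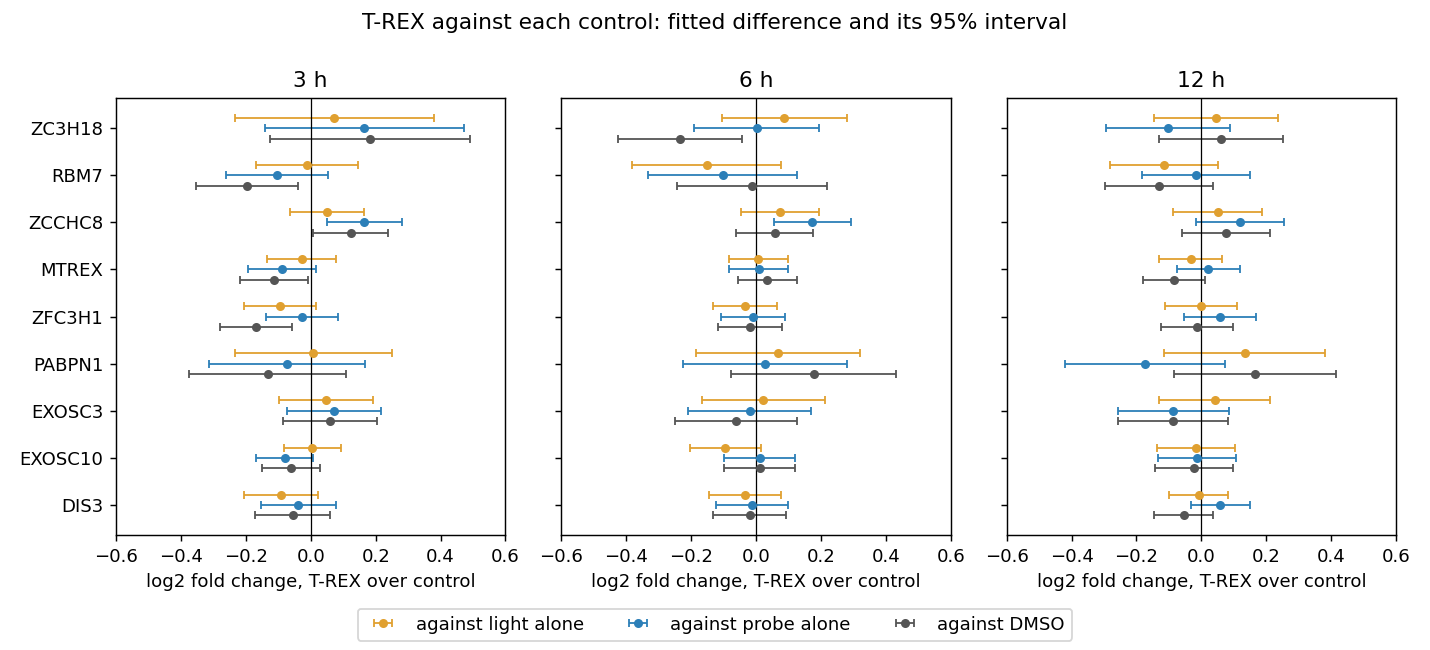
Fitted log2 fold change of T-REX over light alone, probe alone and DMSO for each factor at 3, 6 and 12 h (points), with the 95% interval from the edgeR fit (bars). ZCCHC8 lies above 0 and RBM7 below 0 in all 9 comparisons, which was not counted over all genes. The lowest adjusted p of any point is 0.064 (ZFC3H1 against DMSO at 3 h).

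ZC3H18, the link from the cap-binding complex to NEXT and PAXT, had the least even levels. At 3 h its CPM was 39.2, 43.0, 61.5 and 48.8 in the T-REX libraries and 41.5, 42.7, 49.4 and 36.5 in the DMSO libraries. The T-REX group held the highest value of the 3 h libraries, and the groups overlapped. The log2 fold change against DMSO was 0.18 ± 0.14 (SE, n = 4 against 4, adjusted p = 0.49), and it was 0.040 without T-REX replicate 3 and 0.11 without DMSO replicate 4. At 6 h the T-REX libraries were close together at 39.1, 40.1, 40.1 and 40.9 CPM, while the DMSO libraries stood at 45.9, 40.0, 59.6 and 42.9. Here T-REX was lower in the fit (-0.23 ± 0.093, adjusted p = 0.29), and without DMSO replicate 3, the library at 59.6 CPM, the value was -0.10. Light alone (-0.32) and probe alone (-0.24) had log2 fold changes against DMSO of like size at 6 h, and neither was called. At 12 h the log2 fold change of ZC3H18 was 0.061 ± 0.093 against DMSO.

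ZCCHC8, the scaffold of NEXT, was the factor that stood higher in the T-REX arm in 9 of 9 comparisons, with log2 fold changes from 0.050 to 0.17. The share of all genes with 1 sign in all 9 comparisons was not counted, and comparisons at one time share the T-REX libraries. At 3 h the T-REX libraries had 67.2, 63.3, 55.9 and 59.3 CPM. Probe alone had 53.1, 54.6, 56.3 and 57.4 CPM, and DMSO had 57.0, 57.6, 56.4 and 55.0 CPM. Light alone had 60.4, 58.6, 57.2 and 60.9 CPM, so 2 of the 4 T-REX libraries lay above every control library. Against probe alone at 3 h the log2 fold change was 0.17 ± 0.055 (adjusted p = 0.12), and without T-REX replicate 3 it was 0.21 and called (adjusted p = 0.036). Over 23 alternative fits in edgeR, DESeq2 or limma it ran from 0.12 to 0.21. The adjusted p in these fits ran from 0.017 to 0.31. At 6 h T-REX had 57.4, 55.5, 55.4 and 58.8 CPM and probe alone had 49.5, 50.4, 52.1 and 49.4, so these groups did not overlap. The share of all genes without overlap between these groups was not counted. The log2 fold change was 0.17 ± 0.058 (adjusted p = 0.51), in a comparison in which 0.109% of all genes were called. At 3 h 3 of the 4 light alone libraries also lay above every probe alone library.

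RBM7, the RNA-binding subunit of NEXT, was lower under T-REX in 9 of 9 comparisons, with log2 fold changes from -0.20 to -0.013. Here too the share of all genes with 1 sign throughout was not counted. In 4 of these 9 the sign turned when 1 library was left out, to 0.019 against light alone at 3 h, 0.041 against DMSO at 6 h, 0.0019 against light alone at 6 h and 0.031 against probe alone at 12 h. At 3 h it had 27.0, 26.3, 23.5 and 24.1 CPM under T-REX, against 28.7, 30.4, 26.9 and 29.9 under DMSO. Only the highest T-REX library reached the lowest DMSO library. The log2 fold change was -0.20 ± 0.075 (adjusted p = 0.13), and that of light alone against DMSO at 3 h was -0.18 ± 0.075 (adjusted p = 0.60). At 12 h the T-REX libraries (23.0, 22.7, 23.9 and 23.5 CPM) all lay below the DMSO libraries (24.5, 24.2, 28.9 and 24.3 CPM), of which replicate 3 stood apart. How often genes separate in this way was not counted over all genes. The fit gave -0.13 ± 0.081 (adjusted p = 0.31), beside 10.9% of all genes called in that comparison. At 6 h light alone had 28.4, 26.3, 37.3 and 23.1 CPM, and without the library at 37.3 the log2 fold change of T-REX against light alone was 0.0019 in place of -0.15.

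MTREX, the helicase that NEXT and PAXT share, showed small differences in the T-REX arm. At 3 h its CPM was 191, 181, 172 and 167 under T-REX and 191, 204, 182 and 195 under DMSO. The 2 groups overlapped, and the log2 fold change was -0.11 ± 0.051 (adjusted p = 0.19). At 6 h it was 0.034 ± 0.044 and at 12 h -0.085 ± 0.047 against DMSO. Over all 9 comparisons the 95% intervals of MTREX lay within -0.22 and 0.13, the narrowest span of the NEXT subunits.

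ZFC3H1, the large scaffold of PAXT, had the lowest adjusted p of the 9. At 3 h its CPM was 248, 238, 201 and 219.8 under T-REX and 259, 259, 234 and 269 under DMSO, with overlap at the upper end of the T-REX range. The log2 fold change was -0.17 ± 0.054 (adjusted p = 0.064), and probe alone against DMSO had -0.14 ± 0.054 (adjusted p = 0.97). This difference passed the threshold in DESeq2 (-0.17, adjusted p = 0.041), and in the edgeR fit without T-REX replicate 1 (-0.21, adjusted p = 0.017) or without DMSO replicate 3 (-0.20, adjusted p = 0.029). Over 23 alternative fits in edgeR, DESeq2 or limma it ran from -0.21 to -0.12. The adjusted p in these fits ran from 0.00046 to 0.21. At 6 h (-0.020 ± 0.048) and 12 h (-0.014 ± 0.054) the log2 fold changes against DMSO were near 0. PABPN1 had 7.98, 9.21, 7.65 and 8.97 CPM under T-REX and 8.11, 10.5, 8.90 and 9.68 under DMSO at 3 h. Its log2 fold changes ranged from -0.17 to 0.18 over the 9 comparisons, within intervals from -0.42 to 0.43.

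The exosome subunits had the smallest differences under T-REX. EXOSC10 had 139, 135, 143 and 133 CPM under T-REX at 3 h and 150.4, 145, 144 and 148 under probe alone. These groups did not overlap, which was not counted over all genes. The log2 fold change was -0.080 ± 0.043 (adjusted p = 0.32), in a comparison with 1.05% of all genes called. Its 9 log2 fold changes ran from -0.095 to 0.012. EXOSC3 ran from -0.086 to 0.071 and DIS3 from -0.091 to 0.058. None of these 27 values had an unadjusted p of at most 0.05.

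The authors deposited 2 factors of unwanted variation per library, and with these as covariates the result at 3 h changed. Then 4 of 9 factors were called against DMSO at 3 h: ZFC3H1 (log2 fold change -0.17, adjusted p = 0.00046), ZC3H18 (0.18, 0.023), RBM7 (-0.20, 0.026) and MTREX (-0.12, 0.031). In that fit 20.8% of all genes were called, so 4 of 9 should be read against that share. Against probe alone at 3 h ZCCHC8 (0.16, adjusted p = 0.017) and ZC3H18 (0.16, adjusted p = 0.047) were called, beside 17.4% of all genes. At 6 h ZC3H18 was called against DMSO (-0.22, adjusted p = 0.021), beside 7.14% of all genes, opposite in sign to 3 h. Between controls the same covariates gave 4 of 9 for probe alone against DMSO at 12 h, beside 22.5% of all genes. Probe alone against DMSO had 1 of 9 at 3 h (1.25% of all genes) and 1 of 9 at 6 h (2.45%). Light alone against DMSO had 1 of 9 at 6 h (12.2%) and 0 of 9 at 3 h and 12 h. Light alone against probe alone had 0 of 9 at each time. The T-REX fold changes themselves moved little from those without covariates. The factors are scores of these same libraries. At 3 h the first had r of -0.93 with the within-group deviations of ZC3H18 and 0.90 with those of ZFC3H1. The calls with covariates are therefore not separate support for a difference.

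Whether the difference of T-REX from the mean of the 3 controls changed with time was tested with all 48 libraries in 1 fit. For the difference at 6 h against that at 3 h 0 of 9 factors and 0% of all genes were called by edgeR, with 1097 genes and 0 of the 9 at an unadjusted p of at most 0.05. For 12 h against 3 h 0 of 9 were called, beside 0.116% of all genes, and 0 of 9 had an unadjusted p of at most 0.05. The lowest unadjusted p values were those of ZFC3H1 at 12 h, with a difference of 0.12 ± 0.059 in log2 fold change (adjusted p = 0.47), and MTREX at 6 h (0.10 ± 0.051, adjusted p = 0.68).

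The control arms were compared with each other as background. Of the 9 factors 0 were called for light alone against DMSO at 3 h (0.00681% of all genes), 6 h (0.00681%) and 12 h (0.0136%). For probe alone against DMSO 0 of 9 were called at 3 h (0.00681%), 6 h (0.0272%) and 12 h (5.11%). For light alone against probe alone 0 of 9 were called at 3 h (0.232%), 6 h (0.0613%) and 12 h (0.415%). At 12 h PABPN1 had 10.5, 9.08, 9.82 and 8.78 CPM in probe alone and 7.29, 8.13, 7.41 and 7.43 in DMSO. These groups had no overlap, and the share of all genes without overlap was not counted. The log2 fold change of PABPN1 there, 0.34 ± 0.12 (adjusted p = 0.093), was larger than any of the 81 between T-REX and a control.

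Levels were also compared between times. With the 4 arms averaged, 7 of 9 factors were called lower at 12 h than at 3 h, beside 66% of all genes called in either direction and 32.9% called lower. The median log2 fold change of the 9 was -0.18, that of all genes -0.0053. At 6 h 4 of 9 were called lower than at 3 h, beside 48.3% of all genes called and 23.6% called lower, with a median of -0.11 for the 9 and -0.0080 for all genes. The 3 times are separate sets of libraries, so time after the reaction, time in culture and the set of libraries cannot be told apart.

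DIS3, the processive nuclease, fell by 0.28 ± 0.025 on the log2 scale from 3 h to 12 h (adjusted p = 8.96e-14), and its level dropped by 17.8%. Its 16 libraries had a lowest, median and highest CPM of 454, 508 and 565 at 3 h, 409, 448 and 486 at 6 h, and 389, 415 and 455 at 12 h. In 15 of 16 libraries at 12 h the level was below every library at 3 h. How often genes separate in this way between the times was not counted over all genes. At 6 h it fell by 0.18 ± 0.025 (adjusted p = 1.2e-07). The arms gave log2 fold changes at 12 h of -0.23 ± 0.051 for T-REX, -0.31 ± 0.051 for light alone, -0.35 ± 0.051 for probe alone and -0.24 ± 0.051 for DMSO.

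All 3 NEXT subunits were lower at 12 h than at 3 h. ZCCHC8 fell by 0.22 ± 0.028 (adjusted p = 2.6e-09), from a median of 57.3 CPM at 3 h to 49.96 at 12 h. Of its libraries at 12 h, 13 of 16 lay below all those at 3 h, a separation not counted over all genes. MTREX fell by 0.18 ± 0.022 (adjusted p = 1.3e-09), from a median of 184 to 164 CPM. RBM7 fell by 0.13 ± 0.046 (adjusted p = 0.0097), and its range of 22.4 to 28.9 CPM at 12 h overlapped the 23.5 to 30.4 CPM at 3 h. At 6 h only ZCCHC8 of these 3 was called, with a fall of 0.11 ± 0.028 (adjusted p = 0.0011). The values at 6 h were -0.045 ± 0.022 for MTREX and 0.023 ± 0.046 for RBM7.

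ZC3H18 fell by 0.21 ± 0.059 at 12 h (adjusted p = 0.0020), with 14 of 16 libraries below the median of 44.3 CPM at 3 h. At 6 h its difference was -0.13 ± 0.058 (adjusted p = 0.062, and 0.038 in DESeq2). The arms spread widely at 6 h, from -0.28 ± 0.12 in light alone to 0.15 ± 0.12 in DMSO, where a single library stood at 59.6 CPM. Of the PAXT members, ZFC3H1 fell by 0.093 ± 0.026 at 12 h (adjusted p = 0.0014), the smallest of the 7 called, and 0 of its 16 libraries at 12 h lay below all those at 3 h. By arm its log2 fold change at 12 h was -0.0055 ± 0.051 in T-REX and -0.16 ± 0.051 in DMSO. Light alone (-0.094 ± 0.051) and probe alone (-0.11 ± 0.051) lay between these. PABPN1 fell by 0.21 ± 0.056 at 6 h (adjusted p = 0.0015) and was not called at 12 h (-0.079 ± 0.056, adjusted p = 0.21). EXOSC3 fell by 0.11 ± 0.041 at 6 h (adjusted p = 0.022, or 0.063 without DMSO replicate 2 of 6 h and 0.056 without that of 3 h) and by 0.21 ± 0.041 at 12 h (adjusted p = 1.65e-05). EXOSC10, the other nuclear nuclease, was called at neither time (-0.047 ± 0.025 at 6 h and -0.046 ± 0.025 at 12 h). At 12 h its 95% interval was -6.54% to 0.338% in level.

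**Figure D2:**
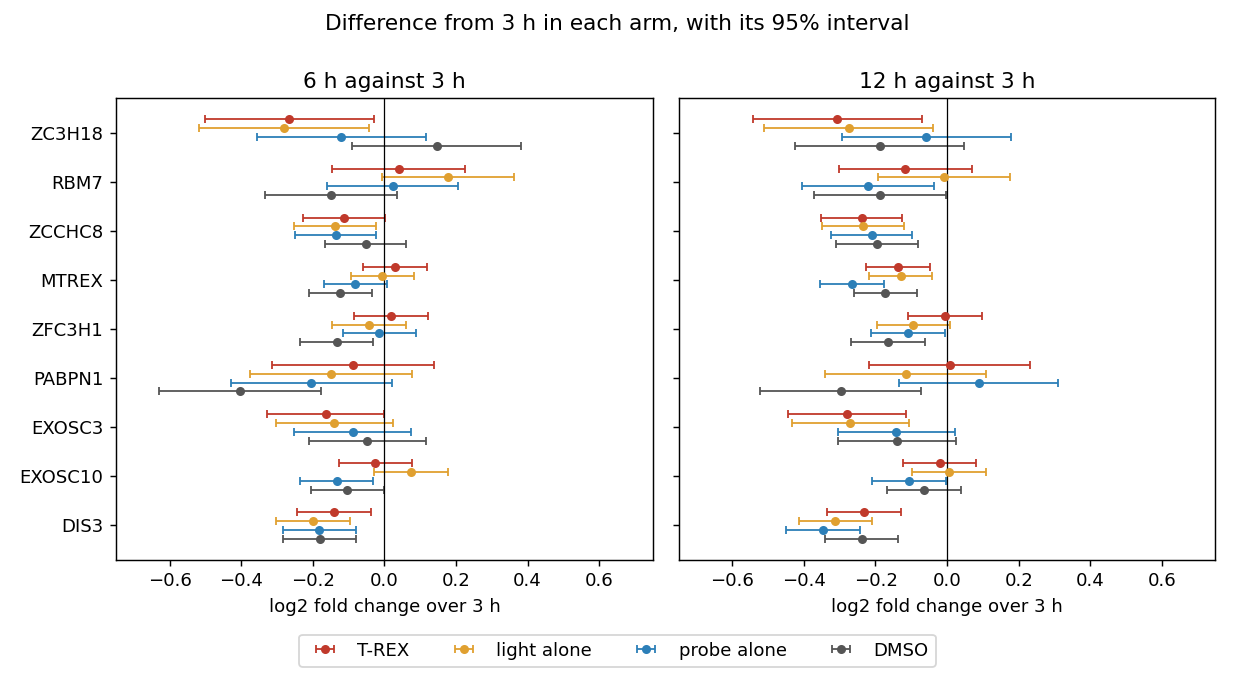
Fitted log2 fold change of each factor at 6 h (left) and 12 h (right) over 3 h within each arm (points), with 95% intervals from the fit of 48 libraries (bars). At 12 h 8 of 9 factors lie below 0 in T-REX, light alone and probe alone and 9 of 9 in DMSO, with DIS3 between -0.35 and -0.23.

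The rest of the pathway was read from a list of 29 genes, all in the table, that holds the other exosome subunits and cofactors, the partners of TRAMP and PAXT, cap-binding and termination partners, and cytoplasmic exosome partners. At 12 h 23 of 29 were called against 3 h, 21 lower and 2 higher, beside 66% of all genes called and 32.9% called lower, with a median log2 fold change of -0.21. At 6 h 15 of 29 were called, with a median of -0.13, beside 48.3% of all genes, so the count called in either direction is near the background. Of the 29, 13 were called lower, beside 23.6% of all genes called lower, and 2 higher. At 12 h these counts were 9 lower of 12 for exosome subunits and cofactors, 4 lower of 6 for TRAMP and PAXT partners, and 6 lower of 7 for cap-binding and termination partners. Among the 4 cytoplasmic partners 2 were lower and 2 higher. The 2 that rose were SKIC2 (0.16 ± 0.048, adjusted p = 0.0030) and SKIC3 (0.12 ± 0.022, adjusted p = 3.2e-06), subunits of the Ski complex that serves the cytoplasmic exosome, and both were picked out after their values were seen.

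In the T-REX comparisons 4 of these 29 genes were called at least once. At 3 h 3 of 29 were called against DMSO (5.99% of all genes) and 3 of 29 against the mean of the controls (6.17%), at 6 h 1 of 29 against light alone (0.218%), and at 12 h 2 of 29 against DMSO (10.9%) and 1 of 29 against the mean (3.78%). TENT4B, a poly(A) polymerase of the TRAMP complex that works with MTREX, was lower against DMSO at 3 h (-0.27 ± 0.055, adjusted p = 0.0078). Its CPM was 57.1 to 62.2 under T-REX and 65.5 to 75.5 under DMSO. RBM27, an RNA-binding protein linked to PAXT, was lower against DMSO at 3 h (-0.26 ± 0.061, adjusted p = 0.016). MPHOSPH6, an exosome cofactor that binds MTREX, was lower against DMSO at 12 h (-0.36 ± 0.073, adjusted p = 0.0027), and probe alone against DMSO gave -0.48 ± 0.074 (adjusted p = 0.0011). NCBP1, with its plasmid reads, was higher against DMSO at 3 h (0.50 ± 0.12, adjusted p = 0.029) and 12 h (0.73 ± 0.13, adjusted p = 0.0025), and against light alone at 6 h (0.80 ± 0.14, adjusted p = 0.021). NCBP1 also differed between controls, with 0.77 ± 0.13 for probe alone against DMSO at 12 h (adjusted p = 0.0054), and the part of its level in the other results was not tested. TENT4B (-0.22 ± 0.046, adjusted p = 0.00995) and RBM27 (-0.21 ± 0.050, adjusted p = 0.017) were also called against the mean of the 3 controls at 3 h. They were not called against light alone or probe alone by themselves, where their log2 fold changes were -0.21 and -0.17 for TENT4B and -0.20 and -0.18 for RBM27.

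Within groups the factors did not vary as a unit. Over the 36 pairs the correlation of deviations from the group mean had a median of 0.053, with 21 of 36 above 0. The most positive was 0.62, for ZFC3H1 with DIS3. The most negative was -0.87, for ZC3H18 with ZFC3H1, which act in the same pathway. These 2 were opposed at each time, with r of -0.87 at 3 h, -0.85 at 6 h and -0.90 at 12 h (16 libraries each). The points share library, depth and composition, and the values are a description.

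**Figure D3:**
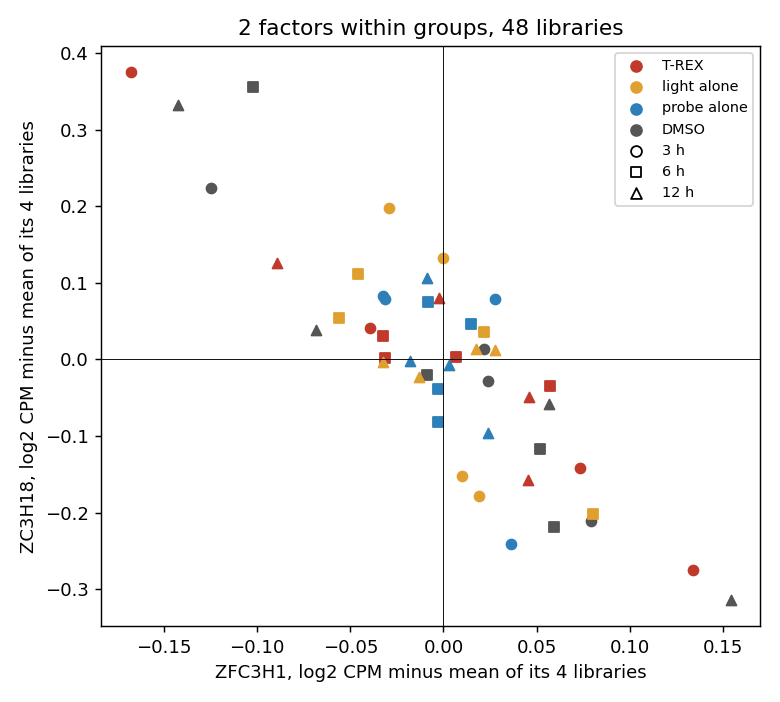
Deviation of ZC3H18 (y axis) and ZFC3H1 (x axis) from the mean of their 4 libraries, in log2 CPM, for 48 libraries coloured by arm and shaped by time. The points run from upper left to lower right, with a Pearson r of -0.87 over all 48.

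Both genes also moved with the first deposited factor of unwanted variation. For 3, 6 and 12 h in turn, r between that factor and the deviations of ZC3H18 took the values -0.93, 0.82 and -0.86. For ZFC3H1 the values were 0.90, -0.83 and 0.88, and for DIS3 they were 0.59, -0.79 and 0.72. The factor is a score of these same libraries, so these values are a description. It was deposited separately for each time and its sign is arbitrary, and with PABPN1 r stayed between -0.21 and 0.14. The genes with opposed deviations also differ in base composition. G and C make up 60.0% of the coding sequence of ZC3H18 (2931 bases) and 40.9% of that of ZFC3H1 (5967 bases). They make up 41.2% for DIS3, 43.1% for RBM7, 39.6% for MTREX and 62.5% for PABPN1. For RBM7 r with the factor was 0.66, -0.67 and 0.63. Neither MTREX (0.67, 0.084 and -0.19) nor PABPN1 went with the factor at all times, nor did ZCCHC8 (0.80, -0.21 and -0.21), EXOSC10 (0.056, 0.30 and -0.51) or EXOSC3 (0.17, 0.33 and 0.60). The part of base composition in these deviations was not tested.

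To show that difference, the stretch of 90 bases whose G and C share is nearest to that of the whole coding sequence is given for both genes, 5′ to 3′, from the GENCODE 29 transcript with the longest coding sequence (GRCh38), with G and C in capitals. It lies at coding bases 7 to 96 of ZC3H18 (chromosome 16, plus strand), with 54 G or C, and at coding bases 568 to 657 of ZFC3H1 (chromosome 12, minus strand), with 37.
ZC3H18: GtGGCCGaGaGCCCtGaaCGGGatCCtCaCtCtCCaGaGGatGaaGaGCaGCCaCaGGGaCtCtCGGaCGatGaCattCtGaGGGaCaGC
ZFC3H1: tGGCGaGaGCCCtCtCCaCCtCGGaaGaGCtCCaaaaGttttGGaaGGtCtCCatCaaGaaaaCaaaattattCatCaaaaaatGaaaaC

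For each factor the gene with the most similar profile over the 48 libraries was found among 12427 genes with a mean of at least 100 counts, by Pearson r of log2 CPM. For the factors with the clearest fall, these were CHD1 for DIS3 (r = 0.94), ZNF146 for MTREX (0.90), OVGP1 for ZCCHC8 (0.86) and SNRPD1 for EXOSC3 (0.75). For the opposed pair they were GPX4 for ZC3H18 (0.91) and LRPPRC for ZFC3H1 (0.88). RBM7 was nearest to ARL1 (0.84), EXOSC10 to ATP5F1B (0.72) and PABPN1 to SNX1 (0.60). None of the 9 factors was the nearest gene of another. Within groups the r fell to 0.77 for DIS3 with CHD1 and to 0.69 for ZCCHC8 with OVGP1, and for ZC3H18 with GPX4 it was 0.88.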

How the data were processed

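RNA was measured in 48 libraries of HEK293T cells, 4 for each of 4 arms at each of 3 times. Per the study's methods, rRNA-depleted stranded libraries were sequenced as paired ends in independent biological quadruplicates, and cutadapt, the aligner TopHat and Cufflinks are listed for the RNA-seq. The counter behind the count tables and the genome build are not given in the sources used here. The authors deposited counts per gene, not normalized, which were tested here, log2 CPM, used in 1 alternative, and a score per library for each of 2 factors of unwanted variation. Tables with those factors removed were not used. R 4.3.3 and edgeR 4.0.16 were used with filterByExpr, TMM and robust quasi-likelihood F-tests. The 16 libraries of a time were fitted together, and time and interaction terms in 1 fit of all 48. Samples were grouped by their titles. limma 3.58.1 and DESeq2 1.42.0 were alternatives. The scripts were tested on simulated data. Symbols, exon lengths and coding sequences are from GENCODE 29.

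Library totals were 23952455 to 37099535 counts. Members and lists were chosen with earlier results of these data known. The 9 factors are always named, with genes of the pathway list called in a T-REX comparison and, for each factor, the gene with the highest r.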

Additional observations from a re-analysis of the deposited data

Results flagged for a closer look

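Within groups of 4 libraries, 8 of 108 groups held a library whose gap to the other 3 was large against the group's range. Chance alone flags about 1 in 20 groups, or 5.4 of 108. The levels are CPM.

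At 6 h EXOSC10 was high in DMSO replicate 3 (142, the others 130.4 to 132) and in light alone replicate 2 (155, the others 139 to 142). EXOSC3 was high in T-REX replicate 1 at 6 h (32.6, the others 26.8 to 27.5). MTREX was low in light alone replicate 3 at 6 h (174, the others 182 to 183). PABPN1 was high in DMSO replicate 2 at 12 h (8.13, the others 7.29 to 7.43). RBM7 was low in probe alone replicate 1 at 6 h (24.6, the others 28.8 to 29.01) and high in DMSO replicate 3 at 12 h (28.9, the others 24.2 to 24.5). ZC3H18 was low in probe alone replicate 2 at 3 h (36.6, the others 45.7 to 45.8).

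Leaving out each of these libraries in turn changed the number of factors called in 0 of the T-REX comparisons.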

How the results depend on the processing

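Of the recomputed counts of called factors 741 stayed within 1.5 times the reported count and 16 did not. The count of 7 of 9 called lower at 12 h was 7 in RLE scaling, DESeq2, no filter and the replicate block, and in each of the 48 fits with 1 library left out. The 2 deposited factors as covariates raised several counts of called factors, given here with the share of all genes called in brackets. For T-REX at 3 h, 2 were called against probe alone (17.4%), 4 against DMSO (20.8%) and 3 against the mean of controls (20.9%). The rule of at least 2 of 3 controls gave 1 at that time (14.4%). T-REX against DMSO gave 1 at 6 h (7.14%). For probe alone against DMSO the counts at 3, 6 and 12 h were 1 (1.25%), 1 (2.45%) and 4 (22.5%). Light alone against DMSO reached 1 at 6 h (12.2%). Each of these counts was 0 without the covariates. DESeq2 called 1 (ZFC3H1) for T-REX against DMSO at 3 h, where it called 1200 genes and edgeR 880. Counts of all genes moved further: with the covariates 3061 against 880 (T-REX against DMSO) and 2551 against 154 (probe alone) at 3 h and 1048 against 61 (DMSO) at 6 h, and with only the compared arms in the fit 187 against 880 for DMSO at 3 h. The cause was not tested. With 1 library left out the counts ranged from 0 to 1 for T-REX against DMSO, probe alone and the mean of controls at 3 h and for probe alone against DMSO at 12 h, and from 3 to 5 for 6 h against 3 h. The libraries that gave the 1 were T-REX replicate 1 or DMSO replicate 3 (ZFC3H1) and T-REX replicate 3 (ZCCHC8) at 3 h, and DMSO replicate 1 at 12 h. For ZC3H18 at 6 h the call was gained in DESeq2 (adjusted p = 0.038).

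Replicate numbers are shared between arms, but the libraries deviated together by number only weakly (median r of 0.053, -0.014 and -0.0015 at 3, 6 and 12 h over 24 pairs), so the numbers were not taken to pair them. With the replicate block, the count for T-REX against DMSO at 3 h was 1 (ZFC3H1, adjusted p = 0.042), with 1020 genes called, and no other count of called factors changed.

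The depth of 188 to 332 counts limits PABPN1. Time and library set cannot be told apart, and the 4 libraries of a group bound the T-REX differences only as the intervals state.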
